A study of Mus musculus with 8 samples.

Results

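The genes described here encode the Rab GTPases, and they were taken by symbol: every gene whose mouse symbol is Rab followed by a number and no more than 1 letter. The rule finds 59 of the 21959 genes in the deposited table, and no measured value entered it. For description each gene was placed by its best-known site of action, with 13 at the Golgi, 21 on endosomes, 12 on the secretory route to the plasma membrane and 13 elsewhere.

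Rab proteins are small GTPases that mark the membranes of the cell and direct the budding, transport, tethering and fusion of vesicles. A guanine nucleotide exchange factor (GEF) loads a Rab with GTP, the active form recruits effectors such as motors and tethers, a GTPase-activating protein (GAP) switches it off, and lipid anchors added by geranylgeranyl transferase let it cycle between membrane and cytosol with the help of GDI. In oocytes regulated secretion is best known from the cortical granules, secretory vesicles of the egg whose release at fertilisation changes the coat around it, and Rab3a and Rab27a have been studied there.

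RNA of oocytes from postnatal day 1 mouse ovaries was sequenced in 8 libraries, 4 from wild-type mice and 4 from Rbpms2 knock out mice. The series title calls RBPMS2, an RNA-binding protein, a regulator of early oocyte development, and the comparison asks which transcripts differ without it. Each library was made from 1 tube of 5 to 10 hand-picked putative primordial oocytes with 18 cycles of amplification. The labels name neither the strain nor the knockout allele. Whether the tubes of a genotype stem from different animals is not stated, so each p-value rests on tube-to-tube spread, which may be technical. Levels are FPKM, fragments per kilobase of gene scaled to library depth, as the authors deposited them.

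Before the Rab genes, the libraries were checked against their labels. Rbpms2 was listed at 158, 167, 136 and 213 FPKM in wild type and at 38.4, 58.3, 31.0 and 42.5 FPKM in the knockout, 3.96-fold lower with no overlap, so its RNA was reduced but not absent in the knockout libraries. Of 9 oocyte markers, all 9 had at least 1 FPKM in every wild-type library and 7 of 9 in every knockout library, where Gdf9 and Zp3, products of growing oocytes, were below 1 FPKM. Their sums did not overlap, at 2852 to 4494 FPKM in wild type and 1780 to 2831 FPKM in the knockout, and single markers differed in both directions. Mean levels of the transcription factor genes Nobox (452 to 43.4 FPKM) and Sohlh1 (748 to 115 FPKM) and of the receptor gene Kit (219 to 32.3 FPKM) were lower in the knockout, and those of the meiotic gene Sycp3 (308 to 1077 FPKM) and the germ cell genes Ddx4 (69.0 to 197 FPKM) and Dazl (250 to 521 FPKM) were higher. The part of this shift in the Rab values was not tested. Markers of other ovarian cells differed between libraries. The 9 stromal markers summed to 3.56 to 77.5 FPKM in wild type, highest in replicate 3, and to 8.12 to 336 FPKM in the knockout, where replicates 2 (294) and 3 (336) stood apart. The 10 granulosa markers ranged from 1.85 to 52.3 FPKM in wild type and from 11.8 to 409 FPKM in the knockout, and the 11 immune markers from 7.05 to 24.1 and from 17.8 to 481 FPKM, both highest in knockout replicate 3. Knockout replicates 1 and 4 had lower sums of these 3 kinds than knockout replicates 2 and 3. The immune sum of knockout replicate 4, 31.3 FPKM, still lay above that of every wild-type library. The 8 endothelial markers reached 336 FPKM in knockout replicate 1 and at most 6.89 FPKM in the other knockout libraries. The 7 erythroid markers ranged from 11.9 to 5368 FPKM in wild type and from 99.6 to 3212 FPKM in the knockout, and the 5 surface-epithelium markers from 4.85 to 10.3 and from 0.602 to 46.7 FPKM.

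Of the 59 Rab genes, 44 reached 1 FPKM in at least 4 libraries and were tested together with all 11235 genes that did so. In the knockout 8 Rab genes were higher and 11 lower at an adjusted p under 0.05 (limma on log2(FPKM + 1), Benjamini-Hochberg over all genes tested), and 25 were not called. The share called, 43.2%, lay beside 43.4% of all genes tested, with 17.7% of all genes called higher and 25.6% called lower. The genotypes did not overlap in 19 Rab genes (43.2%), beside 39.9% of all genes. The median log2 fold change was 0.08 over the tested Rab genes and -0.12 over all genes. Rab genes were thus called about as often as all genes. Rab25 and Rab38 passed the limit on low values through wild type alone, so both had to differ.

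**Figure D1:**
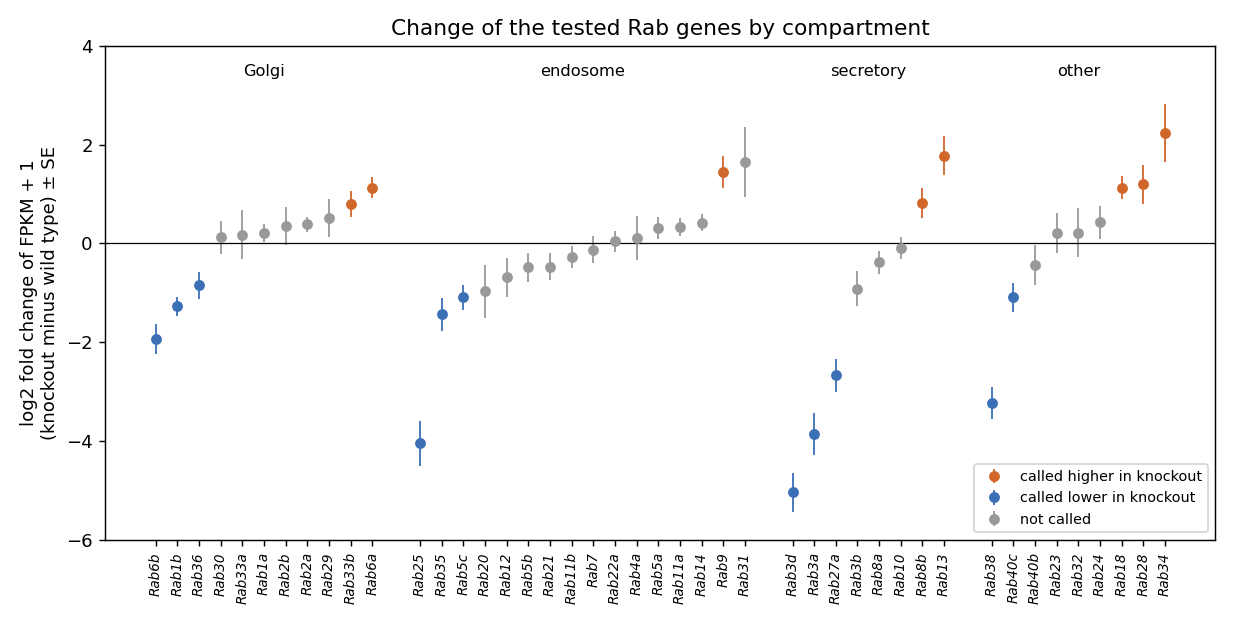
Log2 fold change of FPKM + 1 (knockout minus wild type, y axis) with its standard error for the 44 tested Rab genes, grouped by site of action and ordered by change (x axis). Orange marks genes called higher, blue genes called lower and grey genes not called; Rab3d (-5.04), Rab25 (-4.05) and Rab3a (-3.86) lie lowest.

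The secretory Rabs held the largest change in summed level. Over the 12 genes the FPKM values summed to 186 to 218.5 in wild type (mean 203 ± 13.3 SD, n = 4) and to 62.3 to 95.6 in the knockout (74.3 ± 15 SD, n = 4). Their share of all Rab FPKM was 21.3% ± 0.72 (SD) in wild type and 8.77% ± 1.21 (SD) in the knockout. Most of the fall in the secretory sum came from Rab3d (mean 94.0 FPKM in wild type, 2.29 in the knockout) and Rab3a (31.3 and 1.55 FPKM). Golgi Rabs summed to 338 ± 17.6 and 322 ± 13.5 FPKM, and endosomal Rabs to 354 ± 41.7 and 368 ± 23.0 FPKM (mean ± SD, n = 4 each), with overlapping libraries in both. The remaining 13 genes summed to 55.4 ± 2.79 and 78.1 ± 11.8 FPKM, without overlap. These sums were compared with no test, weight the abundant members most and rest on sites assigned by hand. As each tube holds several picked cells, fewer cells that express a gene and less of its RNA per cell cannot be told apart.

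**Figure D2:**
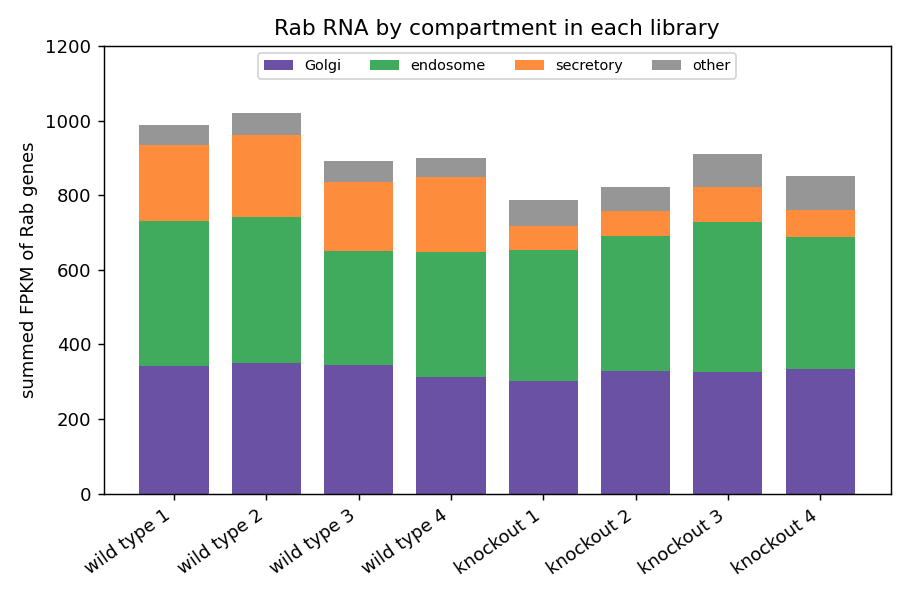
Summed FPKM of the 59 Rab genes in each of the 8 libraries (y axis), stacked by site of action. The secretory part is 186 FPKM or more in each wild-type library and 95.6 FPKM or less in each knockout library, mostly through Rab3d and Rab3a. The Golgi and endosomal parts overlap between genotypes.

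Among the 8 tested secretory Rabs, 3 were called lower, 2 higher and 3 neither (62.5% called, beside 43.4% of all genes). Their median log2 fold change was -0.65. Rab3d, a Rab of regulated exocytosis described on secretory granules (chr9:21907491-21918192, minus strand, GRCm38), was the second most abundant Rab RNA of wild-type oocytes. It was listed at 106, 91.1, 80.1 and 98.8 FPKM in wild type and at 2.83, 4.26, 1.92 and 0.15 FPKM in the knockout. Every knockout library lay far below every wild-type library, and the gene fell from rank 2 to rank 35 of the 59. The ratio of means was 41-fold, and the log2 fold change was -5.04 (SE 0.40, limma adjusted p = 7.98e-06).

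Rab3a, the member of the same subfamily known from synaptic vesicles and from exocytosis in sperm and egg (chr8:70754679-70758677, plus strand), was listed at 28.9, 46.1, 25.8 and 24.4 FPKM in wild type. In the knockout it was listed at 0.346, 0.433, 4.30 and 1.13 FPKM. All 4 knockout values lay below the lowest wild-type value, and the mean was 20.1-fold lower (log2 fold change -3.86, SE 0.42, limma adjusted p = 6.41e-05). Rab3b had lower levels, 1.73, 3.57, 2.15 and 3.31 FPKM in wild type and 0.51, 0.215, 1.45 and 1.99 FPKM in the knockout. Its genotypes overlapped and it was not called (log2 fold change -0.91, limma adjusted p = 0.0599), but passed without knockout replicate 3 (0.0491) or 4 (0.0324). Rab3c was listed at 0 in 7 of the 8 libraries.

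Rab27a, which docks secretory granules and lysosome-related organelles at the plasma membrane (chr9:73044854-73097629, plus strand), was listed at 7.32, 8.30, 5.28 and 6.51 FPKM in wild type. In the knockout it was listed at 0, 0, 0.0216 and 1.19 FPKM, and 1 library thus carried nearly all of its 45 reads. The groups did not overlap (log2 fold change -2.67, SE 0.33, limma adjusted p = 0.000132). Its paralog Rab27b stayed below 1 FPKM in every library and was not tested. Rab37, another granule Rab, had 461 reads over the wild-type libraries (0.667 to 4.04 FPKM) and 7 over the knockout libraries (0 to 0.0945 FPKM). It missed the limit on low values and was called lower without that limit (limma adjusted p = 0.00959), a fit in which 14.9% of all genes were called lower.

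Other secretory Rabs serve constitutive delivery to the plasma membrane. Rab10, which carries cargo to the surface, was the most abundant of them at 29.2 to 46.1 FPKM in wild type and 25.9 to 45.5 FPKM in the knockout, and it was not called (log2 fold change -0.09, SE 0.23, limma adjusted p = 0.765). Rab8a, which acts between the trans-Golgi network and the surface, was listed at 13.7 to 23.3 and 12.3 to 17.1 FPKM and was not called. Its paralog Rab8b rose from 6.18 ± 2.38 to 11.4 ± 2.62 FPKM (SD, n = 4 each), with overlap (limma adjusted p = 0.0436). That call ended in 9 of its 21 alternative fits, 6 of them without a single library (wild-type replicates 1, 2 and 4 and knockout replicates 1, 3 and 4, adjusted p 0.0687 to 0.129). Rab13, known from delivery to tight junctions, was listed at 0.182, 1.14, 2.63 and 1.04 FPKM in wild type and 4.94, 5.83, 11.1 and 4.23 FPKM in the knockout (log2 fold change 1.77, SE 0.39, limma adjusted p = 0.00429). Its highest library in each genotype was replicate 3, the library with the highest stromal and granulosa marker sums of that genotype. The lowest knockout libraries of Rab13 were replicates 1 and 4, with stromal sums of 8.12 and 11.4 FPKM and an endothelial sum of 336 FPKM in the former. The part of these cells in the Rab13 level was not tested. When the 3 libraries richest in stromal markers (replicate 3 of wild type, 2 and 3 of the knockout) were left out, 28.8% of all genes were called lower and 16.8% higher. The only knockout libraries left were replicates 1 and 4, the former with the endothelial sum of 336 FPKM, so the fit was not free of other cells. Of the secretory Rabs in that fit, 5 were called lower and 2 higher, with Rab37 and Rab8a (limma adjusted p 0.00721 and 0.0345) added to the lower ones. Rab37 passed the limit on low values there through wild type alone, so it had to differ. Rab13 had a log2 fold change of 1.69 in that fit (limma adjusted p = 0.00905).

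**Figure D3:**
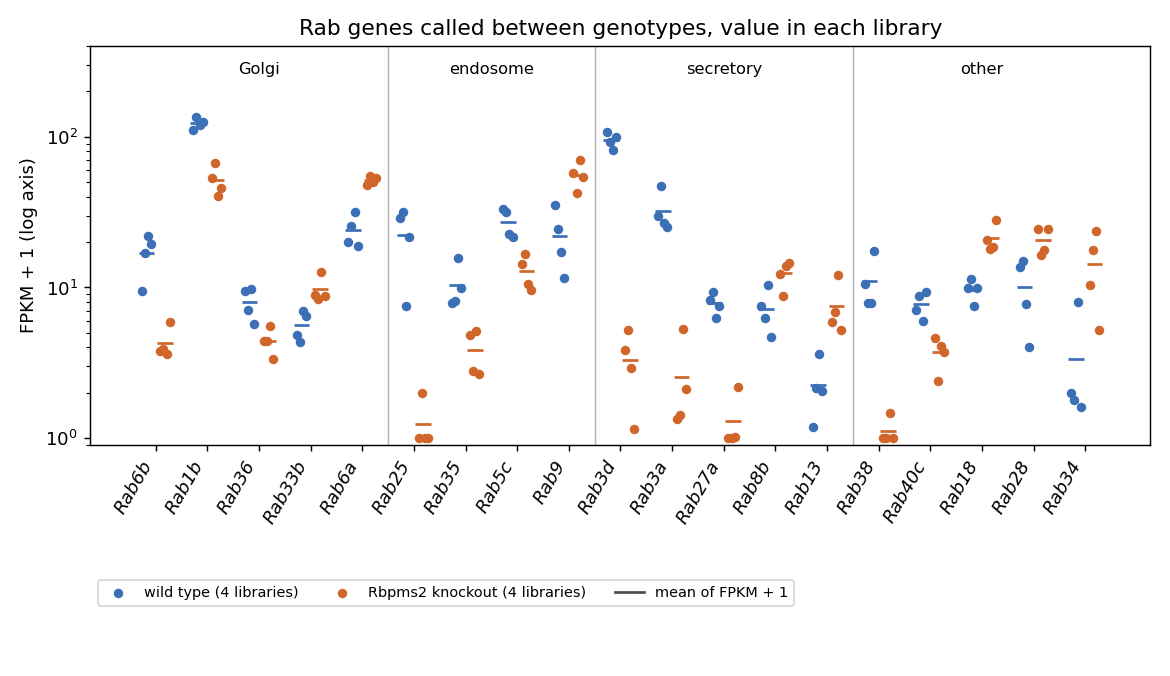
FPKM + 1 (log axis) of the 19 called Rab genes in each library, grouped by site of action, with 4 wild-type points in blue, 4 knockout points in orange and lines at the means. For Rab3d the knockout libraries lie at 4.26 FPKM or less and the wild-type libraries at 80.1 FPKM or more, whereas the points of Rab34 and Rab8b overlap between genotypes.

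Promoter sequences of 3 members that fell, Rab25, Rab27a and Rab3a, are shown because these genes moved together and a searched motif recurred in them. The windows run from 250 bases before to 50 bases after the RefSeq start (GRCm38.p6), and 48 of the 59 Rab genes matched, with 60 promoters. Capitals mark CAGGTG on either strand, so that CACCTG is the motif on the other strand. It is 1 form of the E-box, the CANNTG element read by basic helix-loop-helix factors, and every CAGGTG is also a CANNTG. The sequences are those of Rab25 (chr3:88548230-88548529, minus strand), the first of the RefSeq starts of Rab27a (chr9:73044560-73044859, plus strand) and the downstream start of Rab3a (chr8:70754852-70755151, plus strand), and the other listed promoter of Rab27a and of Rab3a holds no CAGGTG.
Rab25: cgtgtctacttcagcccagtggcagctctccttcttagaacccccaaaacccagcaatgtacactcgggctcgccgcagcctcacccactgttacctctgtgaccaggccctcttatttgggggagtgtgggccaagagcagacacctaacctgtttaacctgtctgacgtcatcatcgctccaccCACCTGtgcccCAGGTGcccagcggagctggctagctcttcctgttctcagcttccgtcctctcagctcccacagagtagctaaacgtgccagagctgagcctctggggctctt
Rab27a: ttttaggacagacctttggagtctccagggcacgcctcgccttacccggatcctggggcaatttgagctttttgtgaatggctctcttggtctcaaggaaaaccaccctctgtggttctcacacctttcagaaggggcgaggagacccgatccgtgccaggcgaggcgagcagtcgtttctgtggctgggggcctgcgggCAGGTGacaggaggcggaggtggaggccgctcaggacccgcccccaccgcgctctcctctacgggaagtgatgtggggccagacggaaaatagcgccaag
Rab3a: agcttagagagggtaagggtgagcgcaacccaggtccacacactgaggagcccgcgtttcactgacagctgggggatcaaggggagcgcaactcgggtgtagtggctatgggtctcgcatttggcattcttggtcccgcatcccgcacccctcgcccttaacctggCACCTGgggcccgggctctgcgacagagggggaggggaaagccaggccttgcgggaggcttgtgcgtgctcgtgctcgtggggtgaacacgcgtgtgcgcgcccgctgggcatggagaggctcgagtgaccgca
The motif began 64 and 53 bases before the start in Rab25, 50 bases before it in Rab27a and 84 bases before it in Rab3a. CAGGTG was found in 4 of the 9 Rab genes called lower that had a promoter (Rab25, Rab27a, Rab3a and Rab5c), in 1 of 7 called higher (Rab9), in 2 of 22 not called and in 3 of 10 not tested. These counts are by gene, with the motif in any listed promoter, and come to 10 of the 48 Rab genes. No share by gene was taken over all mouse genes. Over all Rab promoters it was present in 10 of 60 (16.7%), beside 20.2% of the 32851 mouse promoters of the same length. The promoter of Rab3d, the member with the largest fall, held none. Of the other 7 motifs searched on both strands, CANNTG was in 68.3% of Rab promoters (72.3% of all), CAGCTG in 23.3% (16.3%), CACGTG in 10.0% (7.15%), TAATTG in 1.67% (8.0%), TAATTA in 1.67% (5.29%), TATAAA in 6.67% (13.6%) and the CLEAR element of lysosomal genes in none (0.307%). The motifs and the 3 genes were chosen after their values were seen, and a match describes letters only.

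On endosomes, 3 of the 16 tested Rabs were called lower, 1 higher and 12 neither (25% called, beside 43.4% of all genes). Their median log2 fold change was -0.20. Rab25, the recycling-endosome Rab of the Rab11 subfamily that is best known from epithelia (chr3:88542029-88548300, minus strand), was listed at 27.8, 30.4, 6.59 and 20.6 FPKM in wild type. In the knockout it was listed at 0 in 3 libraries and at 0.986 FPKM in replicate 2, which held all 24 of its knockout reads against 1442 in wild type. The log2 fold change was -4.05 (SE 0.46, limma adjusted p = 7.45e-05). Rab11a, the general recycling-endosome Rab (chr9:64715299-64737758, minus strand), was the most abundant Rab RNA of the knockout. It was listed at 91.0, 98.6, 67.2 and 84.0 FPKM in wild type and 102, 113, 92.5 and 120.2 FPKM in the knockout, with overlap and no call (log2 fold change 0.33, SE 0.18, limma adjusted p = 0.157). After correction for GC content its sign turned (-0.40). Rab11b was listed at 31.3 to 45.0 and 21.7 to 38.5 FPKM and was not called.

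The 3 Rab5 paralogs, which drive fusion of early endosomes, were read separately. Rab5c (chr11:100715009-100738215, minus strand) was listed at 32.2, 30.5, 21.6 and 20.5 FPKM in wild type and 13.3, 15.7, 9.57 and 8.67 FPKM in the knockout, 2.22-fold lower without overlap (log2 fold change -1.09, SE 0.25, limma adjusted p = 0.00519). Rab5b had 15.4 to 28.0 and 8.63 to 18.4 FPKM, and Rab5a 6.39 to 8.39 and 7.87 to 10.9 FPKM, and neither was called. Rab5c and Rab5b had overlapping levels in wild type, and only the former was called, though Rab5b also had a negative log2 fold change (-0.49). The log2 ratio of Rab5b to Rab5c overlapped between genotypes (difference 0.61, exact permutation p = 0.257), so an unequal change of these paralogs was not shown.

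Rab35, which acts in recycling at the plasma membrane and in cytokinesis (chr5:115631908-115647736, plus strand), was listed at 6.83, 7.10, 14.8 and 8.91 FPKM in wild type and 3.85, 1.78, 4.14 and 1.67 FPKM in the knockout (log2 fold change -1.44, SE 0.34, limma adjusted p = 0.00569), without overlap. Rab9, which carries receptors from late endosomes back to the trans-Golgi network (chrX:166457253-166479867, minus strand), was the only endosomal Rab called higher. It was listed at 34.2, 23.3, 16.1 and 10.5 FPKM in wild type and 56.2, 41.3, 69.6 and 53.1 FPKM in the knockout. The groups did not overlap although wild type spread widely, and the mean was 2.62-fold higher (log2 fold change 1.44, SE 0.32, limma adjusted p = 0.00443). Rab7, the Rab of late endosomes and lysosomes, had 29.5 to 43.8 FPKM in wild type and 19.5 to 45.8 FPKM in the knockout and was not called (log2 fold change -0.13, limma adjusted p = 0.732). Rab14, of early endosomes and the trans-Golgi network, did not overlap (27.5 to 34.9 and 37.0 to 47.8 FPKM) and missed the threshold (log2 fold change 0.42, limma adjusted p = 0.0773). Its sign turned after GC correction (log2 fold change -0.06, limma adjusted p = 0.796), and it was called higher under median-of-ratios scaling (0.0435).

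Further endosomal Rabs were not called. Of these Rab4a, of fast recycling, had 10.2 to 16.6 FPKM in wild type and a wider 4.19 to 27.0 FPKM in the knockout, whereas Rab22a, of early and recycling endosomes, was listed at 11 to 11.5 and 10.1 to 15 FPKM (log2 fold change 0.04, SE 0.21). Rab21, which carries integrins, had 14.3 to 25.5 and 9.35 to 19.6 FPKM. Rab12, which leads receptors to lysosomes, had 5.28 to 10.7 FPKM in wild type and 2.11 to 9.55 FPKM in the knockout, and was called lower when knockout replicate 3, its highest, was left out (limma adjusted p = 0.02). Rab12 was highest in replicate 3 of both genotypes, the libraries with the highest stromal sums (77.5 and 336 FPKM) and granulosa sums (52.3 and 409 FPKM). It was lowest, at 2.11 FPKM, in knockout replicate 2, where these sums were 294 and 98.3 FPKM. The part of such cells in the Rab12 level was not tested. Rab20, of phagosome maturation, had 2.47 to 6.36 and 0 to 4.45 FPKM and was called lower without the 3 libraries rich in stromal markers (limma adjusted p = 0.00655). In that fit Rab20 passed the limit on low values through wild type alone, so it had to differ. The knockout libraries left there, replicates 1 and 4, had 0.799 and 0 FPKM.

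Rab31, which acts between the trans-Golgi network and endosomes, was listed at 0, 0.0528, 4.29 and 2.68 FPKM in wild type and 1.68, 9.43, 18.3 and 2.63 FPKM in the knockout and was not called (limma adjusted p = 0.0844), but passed when replicate 3 of wild type (0.0431) or replicate 1 of the knockout (0.0435) was left out, and under quantile normalization (0.0299). Its highest libraries, wild-type replicate 3 and knockout replicates 2 and 3, were those with the highest stromal marker sums of each genotype (77.5, 294 and 336 FPKM). The order differed in wild-type replicates 2 and 4, with 0.0528 and 2.68 FPKM at stromal sums of 29.5 and 23.0 FPKM. Rab7b, a late-endosomal Rab known from myeloid cells, was below 1 FPKM except in knockout replicate 3 (3.21 FPKM), where the immune markers summed to 481 FPKM. The part of these cells in the Rab31 and Rab7b values was not tested.

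At the Golgi, 3 of 11 tested Rabs were called lower, 2 higher and 6 neither (45.5% called, beside 43.4% of all genes). Their median log2 fold change was 0.21. Rab1b, which drives transport from the endoplasmic reticulum to the Golgi (chr19:5099205-5107072, minus strand), was the most abundant Rab RNA of wild-type oocytes. It was listed at 109.5, 135, 119 and 125 FPKM in wild type and 52.4, 66.3, 39.4 and 44.5 FPKM in the knockout, a 2.41-fold fall without overlap (log2 fold change -1.27, SE 0.19, limma adjusted p = 0.000444). Its paralog Rab1a, which acts at the same step, was listed at 97.8, 76.2, 72.9 and 61.9 FPKM in wild type and 77.7, 88.3, 87.0 and 101 FPKM in the knockout and was not called. Rab1b exceeded Rab1a in every wild-type library and lay below it in every knockout library.

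Rab6 paralogs moved in opposite directions. Rab6a, which organises transport at and from the Golgi (chr7:100607410-100641268, plus strand), was listed at 19.1, 24.5, 30.6 and 18.0 FPKM in wild type and 47.0, 54.2, 49.1 and 52.4 FPKM in the knockout, a 2.20-fold rise without overlap (log2 fold change 1.13, SE 0.20, limma adjusted p = 0.00133). Rab6b, a form best described in neurons (chr9:103111787-103185276, plus strand), was listed at 8.52, 15.8, 20.9 and 18.3 FPKM in wild type and 2.80, 2.91, 2.62 and 4.88 FPKM in the knockout, a 4.81-fold fall without overlap (log2 fold change -1.94, SE 0.31, limma adjusted p = 0.000627). Of the exon bases of Rab6a, 19% are shared with Mrpl48 on the opposite strand, and whether the counting used strand is not given in the sources used here. Mrpl48 itself was lower in level in the knockout (12.4 against 18.1 FPKM, log2 fold change -0.53, limma adjusted p = 0.0563) and not called.

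Rab2a, of the compartment between endoplasmic reticulum and Golgi (chr4:8535644-8607778, plus strand), was listed at 81.9, 78.5, 80.7 and 72.6 FPKM in wild type and 99.7, 92.6, 117 and 104 FPKM in the knockout. These groups did not overlap, yet the gene missed the threshold (log2 fold change 0.39, SE 0.15, limma adjusted p = 0.0628), and after correction for GC content the change was -0.00056. Rab33b, which acts at the Golgi and in autophagosome formation, rose from 4.65 ± 1.24 to 8.72 ± 1.98 FPKM (SD, n = 4 each, limma adjusted p = 0.0316). Of the exon bases of Rab33b, 18.7% are shared with Gm38160 on the opposite strand. Rab36, of the Golgi and lysosome positioning, fell from 7.03 ± 1.94 to 3.42 ± 0.882 FPKM (SD, n = 4 each, limma adjusted p = 0.0308). Rab33b was highest in replicate 3 of both genotypes, where the stromal sums were 77.5 and 336 FPKM. Its lowest knockout value, 7.42 FPKM, was in replicate 2, where the stromal sum was 294 FPKM. The part of stromal cells in its level was not tested. Without the 3 libraries rich in stromal markers its log2 fold change stayed at 0.79, while its call ended (limma adjusted p = 0.0675). It also ended when replicate 1 or 2 of wild type, or 1 or 3 of the knockout, was left out (limma adjusted p 0.0522 to 0.0999). That of Rab36 ended when replicate 1, 2 or 3 of wild type, or 1, 2 or 4 of the knockout, was left out (0.0507 to 0.0844), and without the limit on low values (0.0531). The other tested Golgi Rabs, Rab2b, Rab29, Rab30 and Rab33a, had means of 0.539 to 5.84 FPKM in wild type and 0.986 to 8.94 FPKM in the knockout and were not called.

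Of the 9 tested Rabs with other sites, 3 were called higher, 2 lower and 4 neither (55.6% called, beside 43.4% of all genes). Their median log2 fold change was 0.22. Rab38, which with Rab32 supplies lysosome-related organelles such as melanosomes (chr7:88430273-88491572, plus strand), was listed at 9.56, 6.83, 6.91 and 16.5 FPKM in wild type. In the knockout it was listed at 0 in 3 libraries and at 0.479 FPKM in replicate 3, with 9 reads against 596 in wild type (log2 fold change -3.23, SE 0.33, limma adjusted p = 4.29e-05). Its partner Rab32 was not called, at 2.52 to 11.7 FPKM in wild type and 2.89 to 18.0 FPKM in the knockout. Rab23, of Hedgehog signalling, Rab24, of autophagy, and Rab40b, a SOCS-box Rab, were not called either, with means of 1.99 to 4.87 FPKM in wild type and 1.31 to 6.69 FPKM in the knockout. Rab40c, which joins a Rab domain to a SOCS box that binds ubiquitin ligases, fell from 6.79 ± 1.55 to 2.71 ± 0.944 FPKM without overlap (SD, n = 4 each, limma adjusted p = 0.0117), a call that ended after GC correction (0.138).

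Rab18, of the endoplasmic reticulum and lipid droplets, was listed at 8.89, 10.4, 6.57 and 8.86 FPKM in wild type and 19.7, 16.9, 17.6 and 26.9 FPKM in the knockout, 2.34-fold higher without overlap (log2 fold change 1.13, SE 0.23, limma adjusted p = 0.0027). After GC correction its call ended (log2 fold change 0.42, limma adjusted p = 0.144). Rab28, known from cilia and photoreceptors (chr5:41624976-41708157, plus strand), was listed at 12.6, 13.9, 6.72 and 3.02 FPKM in wild type and 23.4, 15.4, 16.7 and 23.3 FPKM in the knockout (log2 fold change 1.2, SE 0.39, limma adjusted p = 0.0291). Its call ended in 8 of its 21 alternative fits. Among these were the fits without replicate 3 or 4 of wild type, or 1 or 4 of the knockout (limma adjusted p 0.0635 to 0.0707). It also ended without the limit on low values (0.0634) and without the 3 libraries rich in stromal markers (0.0644). Rab34, of lysosome positioning and cilia, was listed at 0.983, 0.802, 7.0 and 0.605 FPKM in wild type and 9.36, 16.6, 22.7 and 4.21 FPKM in the knockout, with overlap (log2 fold change 2.23, SE 0.58, limma adjusted p = 0.0101). Its highest libraries, wild-type replicate 3 and knockout replicates 2 and 3, again had the highest stromal sums. In the other libraries it had 0.605 to 0.983 FPKM in wild type and 4.21 and 9.36 FPKM in the knockout, too few above the limit on low values for a test without those 3. The part of stromal cells in its level was not tested.

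The 15 Rab genes below the limit on low values had means of at most 2.15 FPKM in wild type and 1.08 FPKM in the knockout. Beside Rab37, only Rab44, a large Rab with EF hands found in immune granules, was called without the limit, with 344 wild-type and 3 knockout reads (limma adjusted p = 0.0191). Rab9b, Rab17, Rab26, Rab39b and Rab42 were listed at 0 in every wild-type library. Against a floor of 3 reads over that group, Rab17 (115 reads in the knockout) was at least 25.5-fold higher, Rab26 (64 reads) at least 17.6-fold, Rab39b (55 reads) at least 12.7-fold, Rab42 (24 reads) at least 6.97-fold and Rab9b (7 reads) at least 1.84-fold. Each bound leaned on 1 knockout library. Without it the bound was 9.85-fold for Rab26 (replicate 1), 3.60-fold for Rab39b (replicate 2) and 4.61-fold for Rab42 (replicate 3), and the levels of Rab17 (without replicate 2) and Rab9b (without replicate 3) lay under the floor. None of the 5 was called in the fit without the limit. Nearly all Rab17 reads came from knockout replicate 2 (3.94 FPKM). The other 8 genes, Rab3c, Rab4b, Rab7b, Rab15, Rab19, Rab27b, Rab39 and Rab43, were not called without the limit either. Of the exon bases of Rab43, 75.4% are shared with Gm45140, and of those of Rab4b, 65% with Gm21983, both on the same strand. The part of this overlap in their low levels was not tested.

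Whether paralogs changed unequally was tested on their log2 ratio of FPKM + 1 within each library. Of 17 listed pairs 13 had a mean of at least 1 FPKM for both members. None passed after Benjamini-Hochberg adjustment over the 13, and 4 against 4 libraries allow no exact two-sided permutation p below 0.0286 (70 splits). A single pair at that p could not pass the adjustment, however large its difference. The 6 pairs at that smallest p (adjusted 0.0619) did not overlap between genotypes. The Rab6a to Rab6b ratio went from 0.55 ± 0.45 to 3.61 ± 0.29, a difference of 3.07, and Rab32 to Rab38 differed by 3.45, Rab1a to Rab1b by 1.48, Rab5a to Rab5c by 1.41, Rab11a to Rab11b by 0.60 and Rab3a to Rab3b by -2.94. After correction for GC content 3 of the 6 differences stayed large, at 2.55 for Rab6a to Rab6b, 3.53 for Rab32 to Rab38 and -2.56 for Rab3a to Rab3b. The other 3 shrank to 0.30 for Rab1a to Rab1b, 0.52 for Rab5a to Rab5c and -0.03 for Rab11a to Rab11b.

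**Figure D4:**
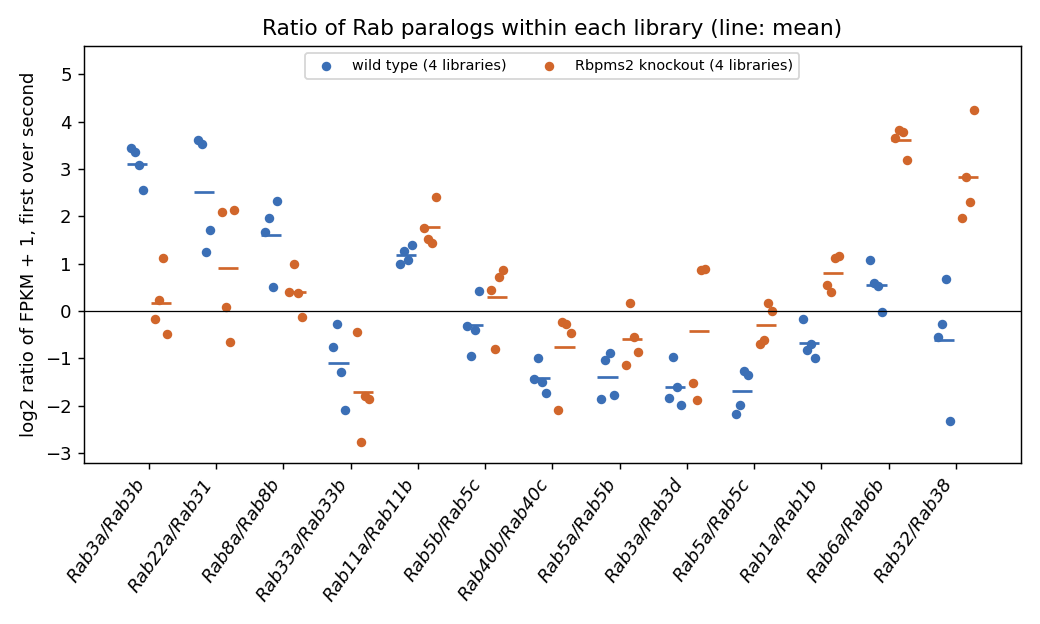
Log2 ratio of FPKM + 1 of the first over the second paralog (y axis) in each library for 13 pairs (x axis), ordered by the difference between genotypes; blue points are 4 wild-type and orange points 4 knockout libraries, with lines at the means. Rab6a/Rab6b and Rab32/Rab38 lie highest in the knockout relative to wild type and Rab3a/Rab3b lowest.

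Called Rab genes differed in base composition, as did called genes in general. The median GC content of the transcript was 45.4% for Rab genes called higher, 54.2% for those called lower and 48.1% for those not called, beside 45.3%, 53.4% and 49.4% over all genes tested. When the relation of level to GC was removed within each library, 5 Rab genes were called higher and 10 lower, beside 14.9% of all genes called higher and 23.6% lower. Rab18 and Rab40c lost their call then, as did Rab28, Rab33b, Rab8b and Rab36, while Rab21 (log2 fold change -0.98, limma adjusted p = 0.0182) and Rab24 (0.99, limma adjusted p = 0.0241) gained one. Rab24 shares 62.4% of its exon bases with Prelid1 on the opposite strand. The secretory falls changed little, with corrected log2 fold changes of -4.79 for Rab3d, -3.48 for Rab3a and -2.86 for Rab27a, and so did those of Rab25 (-3.63), Rab38 (-3.44) and Rab6b (-1.79). The log2 fold change of Rab1b shrank to -0.65 (limma adjusted p = 0.0168). The trinucleotide CAC, part of the RNA motif described for the RBPMS family, occurred at a median of 13.1 per kb of transcript in Rab genes called higher, 18.9 in those called lower and 14.6 in those not called, beside 13.1, 16.9 and 15.3 over all genes. CAC and GC content are not independent measures.

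**Figure D5:**
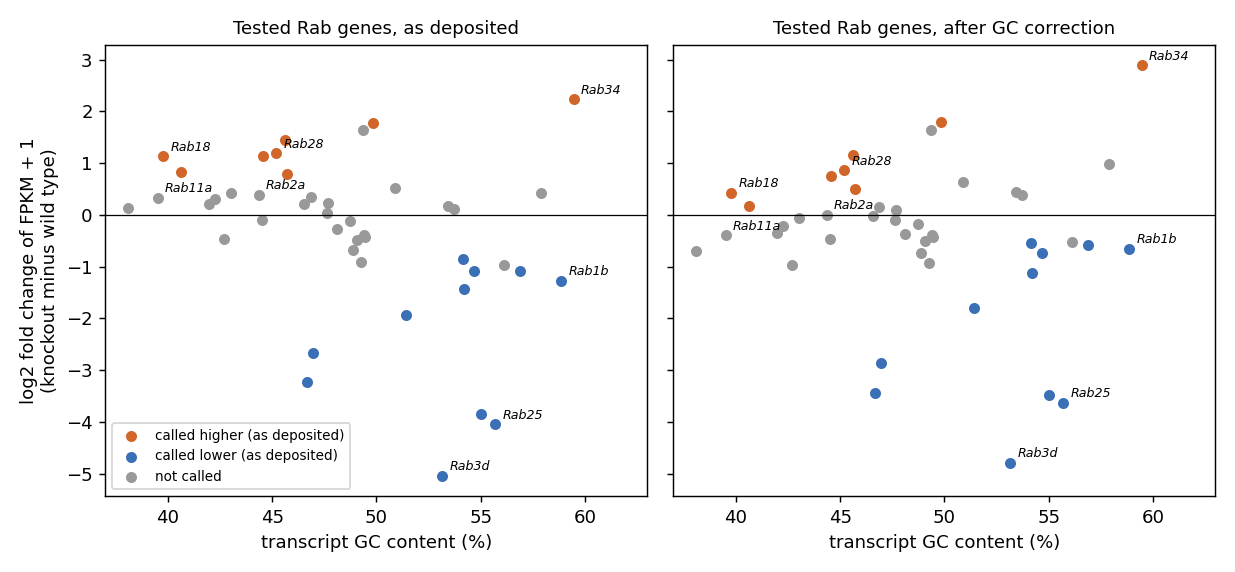
Log2 fold change of FPKM + 1 (knockout minus wild type, y axis) against transcript GC content in percent (x axis) for the tested Rab genes, as deposited (left) and after GC correction within each library (right), coloured by the call as deposited. After correction Rab18 and Rab1b move toward 0, while Rab3d (-4.79) and Rab25 (-3.63) stay low and Rab34 stays high (2.89).

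The enzymes and partners of the Rab cycle were counted from hand-made lists. Their shares stand beside 43.4% called, 17.7% higher and 25.6% lower over all genes tested, and a median log2 fold change of -0.12. Of 8 genes for prenylation and GDI, 2 were called higher and 2 lower (50% called). Rabac1, a membrane protein that binds prenylated Rabs, was listed at 165 to 201 FPKM in wild type and 69.7 to 90.8 FPKM in the knockout (log2 fold change -1.18, SE 0.16, limma adjusted p = 0.000262). Rabggta, the alpha subunit of the transferase that anchors Rabs, fell from 18.1 ± 4.21 to 7.14 ± 2.95 FPKM (SD, n = 4 each, limma adjusted p = 0.00494). Chm, the escort protein that presents Rabs to this transferase, rose from 4.37 ± 0.823 to 8.83 ± 2.26 FPKM (SD, n = 4 each, limma adjusted p = 0.0213), a call that ended after GC correction (log2 fold change -0.04) and when wild-type replicate 4, or replicate 2 or 4 of the knockout, was left out (limma adjusted p 0.0516 to 0.0692). Rabif, a chaperone of nucleotide-free Rabs, rose from 8.83 ± 2.12 to 19.9 ± 6.82 FPKM with overlap (SD, n = 4 each, limma adjusted p = 0.0168), a call lost without knockout replicate 1 (0.0515).

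Of 42 tested GEF genes 4 were called higher and 11 lower (35.7% called, beside 43.4% of all genes). Dennd1a, a GEF for Rab35, was listed at 8.61, 11.8, 10.0 and 12.6 FPKM in wild type and 2.20, 3.08, 2.34 and 1.92 FPKM in the knockout (log2 fold change -1.79, SE 0.24, limma adjusted p = 0.000236). Of 14 tested subunit genes of TRAPP, the complex that activates Rab1, 2 were called higher and 5 lower. Over all genes the shares were 17.7% higher and 25.6% lower. Trappc2 rose 3.77-fold from 45.4 ± 4.19 to 171 ± 76.5 FPKM and Trappc4 1.74-fold from 28.1 ± 3.29 to 48.8 ± 5.74 FPKM (SD, n = 4 each), both without overlap. Trappc2l fell 2.10-fold from 105 ± 17.1 to 50.1 ± 9.21 FPKM and Trappc6a 2.78-fold from 27.3 ± 9.80 to 9.82 ± 1.84 FPKM (SD, n = 4 each), without overlap, the latter losing its call after GC correction (limma adjusted p = 0.0617). Gapvd1, a GEF for Rab5, rose 2.01-fold from 5.74 ± 1.60 to 11.5 ± 2.01 FPKM (SD, n = 4 each, limma adjusted p = 0.0141), a call lost without wild-type replicate 2 (0.0517).

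Of 28 tested GAP genes 1 was called higher and 10 lower (39.3% called, beside 43.4% of all genes), with a median log2 fold change of -0.35 (all genes -0.12). Sgsm2, a GAP active on Rab32 and Rab38, was listed at 9.49, 8.98, 13.0 and 13.4 FPKM in wild type and 0.422, 1.91, 2.55 and 1.38 FPKM in the knockout (log2 fold change -2.31, SE 0.32, limma adjusted p = 0.000277). Tbc1d20, a GAP for Rab1, fell from 61.5 ± 9.92 to 25.4 ± 5.16 FPKM, and Tbc1d8 from 12.7 ± 1.62 to 2.87 ± 1.18 FPKM, both without overlap (SD, n = 4 each). Tbc1d12 was the GAP gene called higher (2.24 ± 0.844 to 5.64 ± 2.31 FPKM, SD, n = 4 each), with overlap. That call ended in 9 alternative fits, among them those that left out replicate 1, 2 or 4 of wild type or replicate 3 or 4 of the knockout (limma adjusted p 0.0558 to 0.0717).

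Of 35 tested effector genes 1 was called higher and 14 lower (42.9% called, beside 43.4% of all genes), with a median log2 fold change of -0.55 (all genes -0.12). Rab11fip4, an effector of Rab11, was listed at 27.6, 40.2, 43.5 and 48.0 FPKM in wild type and 0.608, 6.28, 1.83 and 2.61 FPKM in the knockout (14.1-fold lower, log2 fold change -3.60, SE 0.41, limma adjusted p = 7.45e-05). Myrip, which links Rab27a to myosin and actin, was listed at 6.70, 4.4, 5.24 and 7.51 FPKM in wild type and 0.556, 0.248, 0.121 and 0.736 FPKM in the knockout (log2 fold change -2.30, SE 0.29, limma adjusted p = 0.000135). Myo5b, the motor recruited by Rab11 and Rab25, was listed at 10.0, 12.8, 15.5 and 21.3 FPKM in wild type and 2.78, 1.61, 2.83 and 4.07 FPKM in the knockout (log2 fold change -2.05, SE 0.30, limma adjusted p = 0.000374). Myrip and Rims1 passed the limit on low values through wild type alone, so both had to differ. The same held for the GEF gene Dennd4b and the GAP gene Sgsm1, and all of these were counted as lower. Rab11fip4, Myrip and Myo5b did not overlap between genotypes, and GC correction left them called. Vps35, the retromer subunit that Rab7 recruits, was the effector called higher, 2.93-fold from 21.7 ± 3.39 to 63.7 ± 22.8 FPKM without overlap (SD, n = 4 each, limma adjusted p = 0.00155). After GC correction, counts higher and lower were 1 and 4 of 8 for prenylation and GDI, and 4 and 9 of 42 for GEFs. They were 0 and 7 of 28 for GAPs and 2 and 13 of 35 for effectors. Over all genes in that fit, 14.9% were called higher and 23.6% lower.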

How the data were processed

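The authors deposited 1 table of FPKM per gene and library. Per the submitters' processing notes, adapters were removed with cutadapt, reads were aligned with HISAT2 and counted with HTSeq on GRCm38 (mm10), and the sources used here name no version, annotation release or strand setting. The labels' growth protocol speaks of a microarray, while the values are those of sequencing. The members follow from their symbols, and their sites of action and the regulator lists were assigned by hand. The Rab family and these lists were chosen with earlier results of these data known.

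The 11235 genes with at least 1 FPKM in 4 or more libraries entered 1 limma model (version 3.58.1, R 4.3.3) of log2(FPKM + 1) on genotype, with moderated variances that follow the mean level. A gene was called at a Benjamini-Hochberg adjusted p under 0.05 over these genes. On this scale, log2 fold changes of low genes come out too small, and a fold value is a ratio of mean FPKM. Symbols and exon lengths came from GENCODE M21 (21851 and 21902 genes matched). FPKM values times exon length came in steps of 1 read, whole within 0.02 reads for 97.4% to 97.6% of values, and gave a depth in listed genes of 8310774 to 11926922 reads in wild type and 9554090 to 14526326 in the knockout. These recovered reads served for depth, floors, a check for duplicate libraries (lowest chi-square per degree of freedom within a genotype 33.6) and a limma-voom fit. Few cells were amplified without molecular identifiers, so floors cover counting error only. The treatment of reads that match 2 paralogs is not known, and 20 of the 59 Rab genes share exon bases with another annotated gene.

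Rab genes were given by library where called without overlap with a higher mean of 10 FPKM or more, or at 100 FPKM or more in either. Rab13, Rab27a, Rab31, Rab34, Rab35, Rab38, Rab1a and Rab3b were added after their values were seen. Of each regulator list up to 3 called genes per direction with the smallest p and at least 5 FPKM were named. GC content and CAC density were taken from the longest protein-coding transcript, after a first measure over all transcripts, and CAC density, promoter motifs and exon overlaps were added after the data were seen. GC correction was a loess fit (span 0.5) per library. Alternatives were pseudocounts of 0.1 and 5, no limit on low values or one at 5 FPKM, scaling by totals, by median of ratios or by quantiles, a replicate block, robust eBayes, each library left out, GC correction with and without the block, limma-voom, and a fit without 3 libraries rich in stromal markers. All 8 libraries were also simulated from wild-type means and spread (10607 genes). Of genes changed there, 53 of 103 changed 2-fold and 81 of 97 changed 4-fold were called, with 5 false calls among 139. Only genes above 5 FPKM were changed, and the knockout's differences in other cell types and GC content were not simulated. These rates therefore need not hold for the real libraries. Tables and plots used matplotlib 3.10.9, numpy 2.4.6 and pandas 2.3.3 under Python 3.11.15.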

Additional observations from a re-analysis of the deposited data

Results flagged for a closer look

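Among the 88 groups of 4 libraries (44 tested Rab genes, each in 2 genotypes), 10 held 1 library far from the other 3 on the log2(FPKM + 1) scale. In 2 of them, Rab25 and Rab38 in the knockout, the other 3 libraries were listed at 0, so that any value stands apart. The remaining 8 of 86 are to be read against about 1 in 20 by chance. In knockout replicate 2, the early-endosome gene Rab5b was low at 3.27 (8.63 FPKM, the others 16.3 to 18.4), and the Hedgehog-pathway gene Rab23 was low at 0.94 (0.913 FPKM, the others 4.98 to 5.67). The same library held the only Rab25 reads of the knockout, at 0.99 (0.986 FPKM). Wild-type replicate 3 was high in Rab34 at 3.00 (7.0 FPKM, the others 0.605 to 0.983) and low in Rab8a at 3.87 (13.7 FPKM, the others 22.5 to 23.3), and it had the highest stromal marker sum of its genotype (77.5 FPKM). Knockout replicate 3 was high in Rab33b at 3.66 (11.7 FPKM, the others 7.42 to 7.95) and in Rab38 at 0.56 (0.479 FPKM, the others listed at 0). Knockout replicate 4 was low in Rab2b at 0.0358 (0.0251 FPKM, the others 1.23 to 1.44), and high in Rab27a at 1.13 (1.19 FPKM, the others at most 0.0216) and in Rab6b at 2.56 (4.88 FPKM, the others 2.62 to 2.91). The part of other cells in these values was not tested.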

How the results depend on the processing

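The count of Rab genes called higher, 8 as deposited, was 5 after GC correction and 5 without the 3 libraries rich in stromal markers. In the other fits of all 8 libraries the number lay between 6 and 10, and the number called lower between 9 and 12. Leaving out each library in turn gave 6 to 8 higher and 8 to 13 lower Rab genes, 1465 to 1792 higher and 1995 to 3010 lower genes in all, and 0 to 0 paralog pairs past adjustment. At the smallest possible exact p a single pair cannot pass that adjustment, so the 0 is no measure of stability. Over all genes the counts were 1667 higher and 2651 lower after GC correction, and median-of-ratios and quantile scaling moved the median change of all genes by 0.12 and 0.17. Of 429 values for 21 Rab genes, 383 kept direction and side of the threshold and 40, in 6 genes (Rab8b, Rab18, Rab28, Rab33b, Rab36 and Rab40c), missed it. Rab2a passed it without the limit on low values (0.39) and under median-of-ratios scaling (0.54). Among them, signs turned in Rab11a (-0.40) and Rab2a (-0.00056), both not called, under GC correction with and without the replicate block, and beyond that correction the cause was not tested. The replicate block gave 9 higher and 11 lower Rab genes, 2113 and 2921 genes in all, and no paralog pair (smallest possible p 0.125). Under the block Rab31 was called higher (limma adjusted p 0.026, and 0.0308 with GC correction), and Rabggta lost its call with block and GC correction (0.0522). Same-numbered libraries correlated at 0.185, 0.0158, 0.361 and -0.0530 in their deviations. The highest value of all pairings was that of the replicates 3, while wild-type replicate 1 correlated best with knockout replicate 4. With so few libraries these values cannot decide whether the numbers pair the libraries.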
